A study of Mus musculus with 7 samples.

Results

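Flavin monooxygenases (Fmo) and cytosolic sulfotransferases (Sult) were followed in mouse liver through 9 genes chosen by name: Fmo1, Fmo2, Fmo4, Fmo5, Sult1a1, Sult1b1, Sult1d1, Sult1e1 and Sult5a1. All 9 had a row among the 23366 gene symbols of the deposited tables. Livers of the inbred mouse strain C57BL/6 were sequenced at 21 months (old, 3 libraries) and 3 months (young adult, 4 libraries), so the question is how the 2 families differ in old against young liver. No treatment or engineered allele is named for either age, and the labels do not give the sex. Nor do they tie each library to an animal of its own; the p-values therefore rest on the spread between libraries, part or all of which may be technical. Libraries held 4724687 to 11143125 estimated counts, of which the ribosomal RNA row Rn45s made up 18.7% to 25.6%.

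Both families modify drugs, hormones and other small molecules. Flavin monooxygenases sit in the endoplasmic reticulum membrane and use FAD, NADPH and oxygen to add an oxygen atom, mostly to soft nitrogen and sulfur atoms of their substrates. Cytosolic sulfotransferases move a sulfonate group from the activated donor PAPS to hydroxyl and amino groups, which makes phenols, steroids, thyroid hormones and catecholamines more water soluble and often inactive. The liver is a main site of both reactions.

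The families spanned a wide range of levels, which are given as TPM, a relative abundance per transcript length. In livers at 21 months Fmo5 led with 349 ± 22.2 TPM, followed by Sult1a1 (237 ± 62.4 TPM), Fmo1 (95.1 ± 14.0 TPM) and Sult1d1 (45.6 ± 18.5 TPM; SD, n = 3 for each). In livers at 3 months the same order held, with 249 ± 32.0 TPM for Fmo5, 132 ± 21.8 TPM for Sult1a1, 78.2 ± 7.72 TPM for Fmo1 and 34.2 ± 9.50 TPM for Sult1d1 (SD, n = 4 for each). Sult5a1 and Sult1b1 came next at both ages, with means of 20.5 and 9.35 TPM at 21 months and 18.4 and 5.64 TPM at 3 months. Down to Sult1b1, the ranges of neighbours in this order did not overlap at either age. Fmo4 and Fmo2 stood below 4 TPM in every library. They overlapped with each other at 21 months (2.07 to 3.12 TPM for Fmo4 and 1.28 to 2.36 TPM for Fmo2), while at 3 months Fmo2 (2.52 to 3.57 TPM) lay above Fmo4 (0.66 to 2.32 TPM). Sult1e1 had the lowest mean at both ages, although in 3-month replicate 4 Sult1e1 (0.94 TPM) lay above Fmo4 (0.66 TPM).

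**Figure D1:**
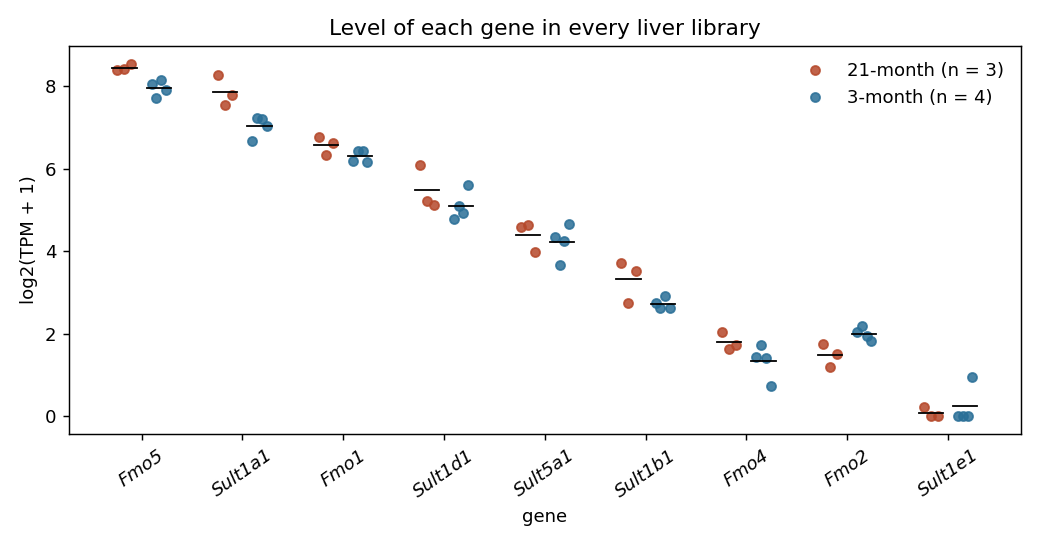
Level of each gene as log2(TPM + 1) in every library, 21-month (n = 3) left of 3-month (n = 4), with a black line at the mean of the plotted values. Fmo5 and Sult1a1 are the most abundant genes at both ages, and Sult1e1 lies at or near 0.

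Each family was carried mostly by its most abundant gene. The summed level of the 4 Fmo genes was 446, 423 and 475 TPM in 21-month replicates 1, 2 and 3, against 342, 299, 371 and 313 TPM in 3-month replicates 1 to 4. Fmo5 made up 74.6% to 80.2% of that sum at 21 months and 69.7% to 77.5% at 3 months. The summed level of the 5 Sult genes was 408, 251 and 278 TPM in 21-month replicates 1, 2 and 3, against 153, 198, 201 and 209 TPM in 3-month replicates 1 to 4. Sult1a1 made up 73.8% to 78.9% of it at 21 months and 62.6% to 74.7% at 3 months. For both sums every library at 21 months lay above every library at 3 months; these sums are descriptions without a test, and on the log2(TPM + 1) scale the median age difference over all genes tested was 0.10.

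Between the ages, 1 of the 8 genes tested passed: Sult1a1 was higher at 21 months. Counts were tested over 11251 genes with edgeR's quasi-likelihood test and Benjamini-Hochberg adjustment at a threshold of 0.05. In that test 11.3% of all genes passed, 5.47% higher and 5.86% lower at 21 months. Sult1e1 had too few counts to be tested. Fold changes pointed up for 7 of the 8 and down for Fmo2, with a median log2 fold change of 0.33, against -0.0015 over all genes tested. Before adjustment, 4 of the 8 had a p under 0.05, against 26.6% of all genes. Libraries of the ages did not overlap for Sult1a1 and Fmo5, which were higher at 21 months, and for Fmo2, which was lower. Of all genes tested, 11.3% were without overlap in the higher direction and 12.8% in the lower direction. In bulk liver, fewer cells of a type and less RNA per cell cannot be told apart.

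**Figure D2:**
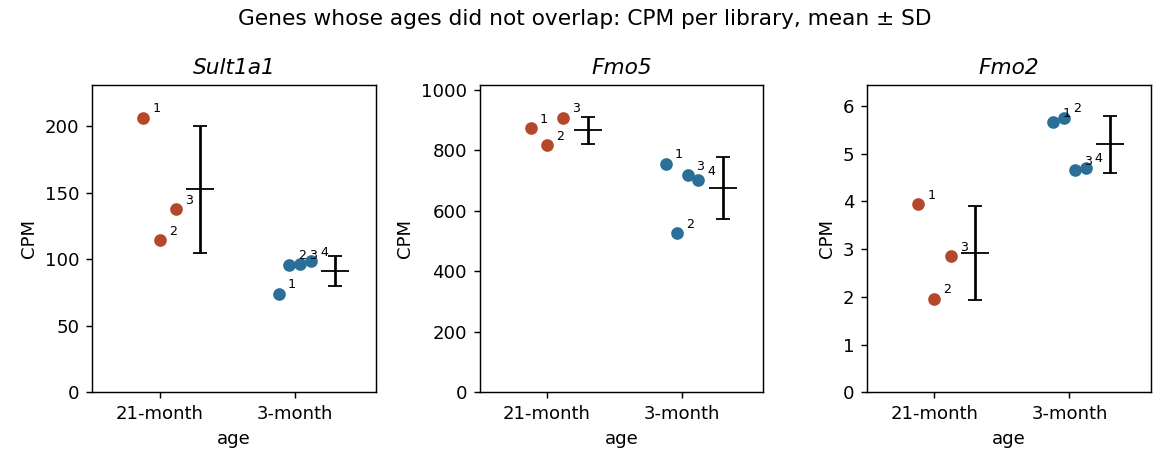
Scaled counts (CPM) of Sult1a1, Fmo5 and Fmo2 in each library, numbered by replicate, 21-month left of 3-month, with mean ± SD in black (n = 3 and n = 4). Sult1a1 and Fmo5 are higher and Fmo2 is lower in all 21-month libraries, and 21-month replicate 1 is the highest Sult1a1 library at 206 CPM.

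Sult1a1 is the main phenol sulfotransferase of liver. It stood at 206, 114 and 137 CPM (counts per 1e+06 scaled counts) in 21-month replicates 1, 2 and 3, against 74.1, 95.8, 96.3 and 98.7 CPM in 3-month replicates 1 to 4. All 21-month libraries lay above all 3-month libraries, with 21-month replicate 1 well above the other two. The row rested on 406 to 2093 counts per library. Sult1a1 rose 1.68-fold (log2 fold change 0.74 ± 0.19 SE, 95% interval 0.32 to 1.17, edgeR adjusted p = 0.0366). With replicate numbers taken as pairs, the log2 fold change was 0.74 ± 0.26 SE and the call was lost (edgeR adjusted p = 0.163). In that fit 3-month replicate 4 adds nothing to the age difference, as no 21-month library bears its number. Fragment length, used as a covariate, partly follows age. With that covariate the log2 fold change was 0.94 ± 0.22 SE and did not pass (edgeR adjusted p = 0.0638). Leaving out 21-month replicate 3, or any single 3-month library (replicate 1, 2, 3 or 4), also ended the call, with log2 fold changes of 0.66 to 0.83 (edgeR adjusted p = 0.0630 to 0.0822). Without 21-month replicate 1 the log2 fold change was 0.46, and the gene passed (edgeR adjusted p = 0.0142).

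Promoter sequence is shown for the genes whose ages did not overlap, as the 250 bases before a RefSeq start (build GRCm38.p6); Sult1a1 lies at chr7:126676419-126676668 on the minus strand. Capitals mark a match to a short motif searched on both strands: the nuclear receptor half-site AGGTCA, the aryl hydrocarbon receptor core GCGTG, the E-box CACGTG, the HNF1 half-site GTTAAT or the core promoter element TATAAA. None of these motifs contains another.
Sult1a1: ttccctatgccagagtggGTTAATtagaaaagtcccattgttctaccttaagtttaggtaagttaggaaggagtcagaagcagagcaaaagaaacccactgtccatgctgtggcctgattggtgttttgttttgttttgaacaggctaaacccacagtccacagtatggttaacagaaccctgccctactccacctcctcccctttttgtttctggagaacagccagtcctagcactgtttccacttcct
The Sult1a1 window held 1 match, to GTTAAT, whose first base lies 232 bases before the start; 6.43% of 32851 windows of this length hold that motif. A match is a description of letters and does not show binding.

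Sult1b1, Sult1d1 and Sult1e1 lie next to each other on chromosome 5 in the RefSeq gene order, yet their levels differed widely. Sult1b1, which acts on thyroid hormones and small phenols, stood at 15.7, 6.70 and 12.5 CPM in 21-month replicates 1, 2 and 3, against 8.03, 6.43, 8.29 and 7.47 CPM in 3-month replicates 1 to 4. Replicates 1 and 3 at 21 months were above all 3-month libraries, and replicate 2 was among them. The 1.58-fold difference did not pass (log2 fold change 0.66 ± 0.24 SE, 95% interval 0.14 to 1.18, edgeR adjusted p = 0.0941). It passed only in the fit without 21-month replicate 2 (log2 fold change 0.94, edgeR adjusted p = 0.00424), among all alternatives run.

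Sult1d1, which sulfates catecholamines in mice, had 1 high library at each age. It stood at 79.9, 39.8 and 37.0 CPM in 21-month replicates 1, 2 and 3, against 34.1, 38.2, 34.0 and 63.8 CPM in 3-month replicates 1 to 4. The ages overlapped, and the log2 fold change of 0.30 ± 0.37 SE did not pass (95% interval -0.62 to 1.22, edgeR adjusted p = 0.673). Without 21-month replicate 1 it turned to -0.15. That library was the highest at its age for 7 of the 8 genes tested, all but Fmo5.

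Sult1e1, the estrogen sulfotransferase, was near the counting floor of 3 counts. It held 1, 0 and 0 counts in 21-month replicates 1, 2 and 3, against 0, 0, 0 and 4 counts in 3-month replicates 1 to 4. All but 1 of the counts at either age came from a single young library. The ratio of scaled sums, 21 months over 3 months, was 0.275, with a 95% exact binomial interval of 0.00557 to 2.77 that covers counting error only. At this depth 3 counts are 0.117 CPM over the 21-month group and 0.106 CPM over the 3-month group, so no difference was detectable. Of the 9 genes, Sult1e1 alone had a library with 3 or fewer counts.

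The windows before the starts of Sult1d1 and Sult1e1 are shown as those of adjacent genes with abundant and nearly absent transcripts, at chr5:87569007-87569256 and chr5:87591612-87591861, both on the minus strand.
Sult1d1: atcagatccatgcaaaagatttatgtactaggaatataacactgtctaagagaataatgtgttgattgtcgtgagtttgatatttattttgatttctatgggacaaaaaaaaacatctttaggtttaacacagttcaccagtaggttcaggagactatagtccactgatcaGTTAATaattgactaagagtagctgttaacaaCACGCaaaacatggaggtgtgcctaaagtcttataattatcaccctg
Sult1e1: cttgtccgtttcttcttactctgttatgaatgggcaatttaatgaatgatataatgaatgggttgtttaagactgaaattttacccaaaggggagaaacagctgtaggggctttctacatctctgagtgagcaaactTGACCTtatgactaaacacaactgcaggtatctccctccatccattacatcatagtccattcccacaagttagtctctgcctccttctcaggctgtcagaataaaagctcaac
In Sult1d1 the matches were to GTTAAT and, on the other strand, to GCGTG, found in 28.2% of windows. In Sult1e1 the match was to AGGTCA on the other strand, found in 14.0% of windows. The 2 Sult1b1 windows held 1 match each, to AGGTCA on the other strand and to GCGTG.

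Sult5a1 stood at 13.0, 12.3 and 7.85 CPM in 21-month replicates 1, 2 and 3, against 11.9, 6.35, 9.91 and 15.4 CPM in 3-month replicates 1 to 4. The ages overlapped throughout. Its log2 fold change was 0.06 ± 0.29 SE (95% interval -0.57 to 0.69, edgeR adjusted p = 0.930), an interval that still allows a change of 1.62-fold upward. The sign turned without 3-month replicate 2 (-0.17) and without 21-month replicate 1 (-0.08).

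Fmo5, which inserts oxygen next to carbonyl groups and so differs from the other family members, was the most abundant gene of both families. It stood at 874, 816 and 907 CPM in 21-month replicates 1, 2 and 3, against 756, 526, 718 and 701 CPM in 3-month replicates 1 to 4. All 21-month libraries were above all 3-month ones, and 3-month replicate 2 was the lowest. With 3548 to 8868 counts per library, counting error was small beside the spread between libraries. The 1.28-fold difference missed the threshold (log2 fold change 0.36 ± 0.12 SE, 95% interval 0.11 to 0.61, edgeR adjusted p = 0.0637). With replicate numbers taken as pairs it passed (log2 fold change 0.39 ± 0.11 SE, edgeR adjusted p = 0.0329). With fragment length as a covariate it was 0.27 ± 0.16 SE (edgeR adjusted p = 0.395). Fmo5 passed in none of the fits with 1 library left out (log2 fold change 0.26 to 0.42, edgeR adjusted p = 0.0603 to 0.180). Without the low 3-month replicate 2 the log2 fold change was 0.26 (edgeR adjusted p = 0.161). The row sums several RefSeq transcripts, and its abundance-weighted length stayed between 5206 and 5216 bases over the 7 libraries.

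Fmo1, Fmo2 and Fmo4 are neighbours on chromosome 1. Fmo1, a broad drug oxidase of mouse liver and kidney, stood at 125, 85.2 and 104 CPM in 21-month replicates 1, 2 and 3, against 90.9, 94.6, 95.5 and 91.7 CPM in 3-month replicates 1 to 4. The young libraries were close together and fell within the spread of the old ones. The log2 fold change of 0.17 ± 0.12 SE did not pass (95% interval -0.07 to 0.42, edgeR adjusted p = 0.370). It was 0.025 without 21-month replicate 1 and 0.32 without 21-month replicate 2 (edgeR adjusted p = 0.899 and 0.0658).

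Fmo2, known as the main lung form in most mammals, was the only gene tested that pointed down. It stood at 3.94, 1.96 and 2.85 CPM in 21-month replicates 1, 2 and 3, against 5.66, 5.75, 4.65 and 4.71 CPM in 3-month replicates 1 to 4. All 21-month libraries were below all 3-month ones. The row rested on 40, 14 and 24 counts in 21-month replicates 1, 2 and 3, against 31, 67, 23 and 29 counts in 3-month replicates 1 to 4. The log2 fold change of -0.81 ± 0.26 SE, or 1.75-fold lower, missed the threshold (95% interval -1.36 to -0.26, edgeR adjusted p = 0.0534). Without 21-month replicate 1 it passed (log2 fold change -1.11, edgeR adjusted p = 0.0129). With fragment length as a covariate it was -0.59 ± 0.34 SE (edgeR adjusted p = 0.381).

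Fmo4 was the lowest of the tested genes in counts. It held 28, 12 and 16 counts in 21-month replicates 1, 2 and 3, against 9, 23, 7 and 4 counts in 3-month replicates 1 to 4. In CPM this was 2.76, 1.68 and 1.90 at 21 months, against 1.64, 1.97, 1.42 and 0.649 at 3 months. The ages overlapped through 3-month replicate 2. The log2 fold change of 0.53 ± 0.37 SE did not pass (95% interval -0.27 to 1.33, edgeR adjusted p = 0.400). It was 0.27 without 21-month replicate 1, 0.31 without 3-month replicate 4 and 0.81 without 3-month replicate 2, and passed in none of these fits.

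The windows of Fmo5 (chr3:97628769-97629018, plus strand) and Fmo2 (chr1:162898759-162899008 and chr1:162898494-162898743, minus strand) are shown as those of the other genes whose ages did not overlap.
Fmo5: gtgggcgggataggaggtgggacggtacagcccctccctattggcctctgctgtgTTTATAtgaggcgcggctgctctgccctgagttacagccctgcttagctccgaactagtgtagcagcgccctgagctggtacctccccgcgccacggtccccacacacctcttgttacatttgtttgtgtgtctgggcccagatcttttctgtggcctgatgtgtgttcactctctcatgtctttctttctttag
Fmo2, upstream start: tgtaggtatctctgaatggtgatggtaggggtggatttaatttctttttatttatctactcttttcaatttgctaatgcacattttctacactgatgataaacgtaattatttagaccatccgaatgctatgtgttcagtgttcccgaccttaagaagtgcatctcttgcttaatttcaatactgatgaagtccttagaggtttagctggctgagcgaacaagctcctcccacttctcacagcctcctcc
Fmo2, downstream start: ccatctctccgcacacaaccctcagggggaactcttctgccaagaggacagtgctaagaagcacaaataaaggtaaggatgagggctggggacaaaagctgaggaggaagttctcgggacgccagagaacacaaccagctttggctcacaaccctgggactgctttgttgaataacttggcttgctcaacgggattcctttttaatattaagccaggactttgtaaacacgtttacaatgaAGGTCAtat
Fmo5 held TATAAA on the other strand, a motif of 12.4% of windows, and the downstream Fmo2 window held AGGTCA; the upstream one held none of the motifs. Sult1a1, Fmo5 and Fmo2 shared none of the 5 motifs. By symbol, 8 of the 9 genes matched a window; Fmo4 held AGGTCA on the other strand and Sult5a1 none.

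**Figure D3:**
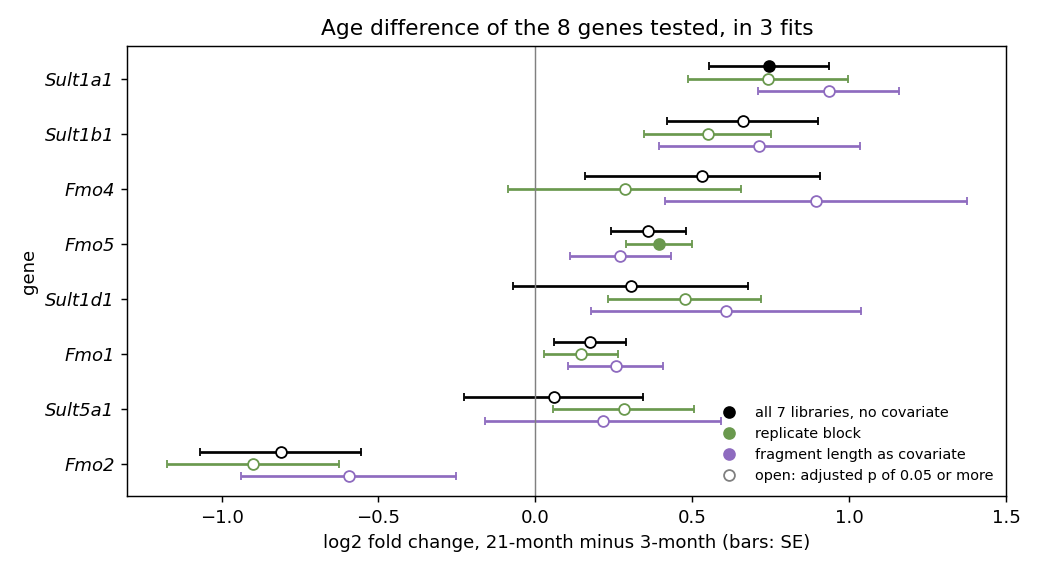
Log2 fold change, 21-month minus 3-month, with SE for the 8 genes tested, in the fit of all 7 libraries without a covariate (black), with the replicate block (green) and with fragment length as a covariate (purple); filled points passed the threshold of 0.05. The point for Sult1a1 is filled only in the first fit and that for Fmo5 only with the replicate block, while all 3 estimates of each gene have the same sign.

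**Figure D4:**
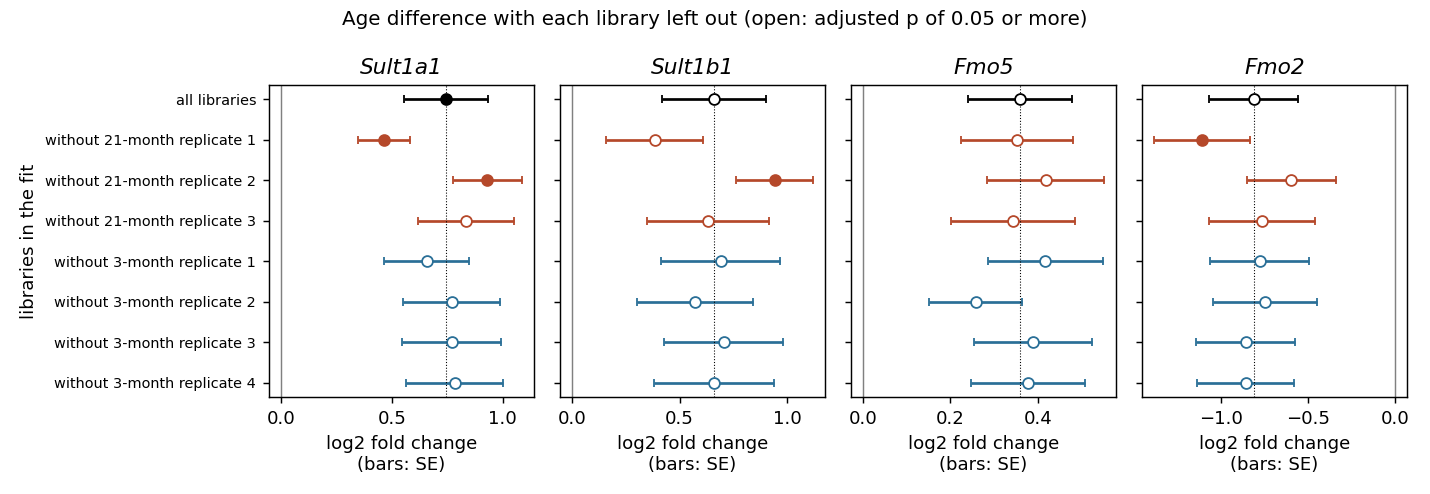
Log2 fold change with SE of Sult1a1, Sult1b1, Fmo5 and Fmo2 with all libraries (black) and with each library left out (21-month in red, 3-month in blue); filled points passed the threshold of 0.05, and each panel has its own x scale. Sult1a1 ranges from 0.46 without 21-month replicate 1 to 0.93 without 21-month replicate 2.

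Most other members of the families were nearly silent in these livers. Sult2a7 and Sult1c2 averaged 3.03 and 2.38 TPM at 21 months, near Fmo4 and Fmo2 (2.50 and 1.83 TPM). At 3 months Sult2a7 and Sult1c2 averaged 0.57 and 1.75 TPM, against 1.585 and 3.02 TPM for Fmo4 and Fmo2. Of 18 further Fmo and Sult names looked for, 16 had a row and 9 of these held no count in any library, which allows up to 0.117 CPM over the 21-month group and 0.106 CPM over the 3-month group. Sult1c2 alone was tested, with 19, 14 and 9 counts at 21 months, against 8, 12, 7 and 8 counts at 3 months (log2 fold change 0.37 ± 0.37 SE, edgeR adjusted p = 0.574). In these libraries the Y chromosome gene Ddx3y stood at 22.5 to 40.2 CPM, while Xist, made from the inactive X chromosome of females, reached at most 0.730 CPM. Sult2a7 fell under the filter on low counts but did not overlap, with 19, 6 and 9 counts at 21 months, against 2, 1, 2 and 1 counts at 3 months. Without that filter its log2 fold change was 2.48 ± 0.64 SE (edgeR adjusted p = 0.00800). The row is near the counting floor, with 3 or fewer counts in 4 libraries, so this value is uncertain. Reads of like genes can be split between rows, but how alike the Sult2a sequences are was not measured. Sult2a1, Sult2a3, Sult2a4, Sult2a5 and Sult2a6 held 0 counts in every library. Sult2a2, Sult2b1, Sult3a1 and Sult4a1 held 1 or 2 counts each, all in 21-month libraries.

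Related pathway genes were read against the 11.3% of all genes tested that passed, 5.47% higher and 5.86% lower; the counts of the 4 lists that follow, at 1 to 3 genes each, lie near that share and say nothing particular of the lists. Of 14 tested genes of sulfate activation, transport and removal of the spent donor PAP, 2 rose and 0 fell, with a median log2 fold change of 0.12. The sulfate exchanger Slc26a1 stood at 157, 180 and 157 CPM at 21 months, against 123, 119, 116 and 129 CPM at 3 months (1.35-fold, edgeR adjusted p = 0.00767). The sulfite oxidase Suox stood at 145, 124 and 147 CPM at 21 months, against 106, 93.2, 109 and 100.5 CPM at 3 months (1.36-fold, edgeR adjusted p = 0.00978). Every 21-month library lay above every 3-month one for both. Papss1, which makes PAPS, pointed the other way without passing (13.5 ± 1.97 CPM at 21 months and 18.0 ± 1.68 CPM at 3 months; edgeR adjusted p = 0.0698), and the sulfide oxidase Sqrdl did not pass (edgeR adjusted p = 0.0785). Papss1 passed without 21-month replicate 1 (edgeR adjusted p = 0.0273) and Sqrdl without 21-month replicate 2 (0.0438). Papss1 also passed with limma voom with sample weights (limma adjusted p = 0.0269). Of 18 tested genes of sulfate removal and Golgi sulfation, 2 rose and 0 fell (median log2 fold change 0.15). They were the lysosomal sulfatases Galns (1.68-fold, edgeR adjusted p = 0.00976) and Ids (1.56-fold, edgeR adjusted p = 0.0428), the second lost with the replicate block (edgeR adjusted p = 0.113). The call of Ids was also lost when 3-month replicate 2, 3 or 4 or 21-month replicate 2 or 3 was left out (0.0623 to 0.116). So it was without edgeR's robust option (edgeR adjusted p = 0.0538) and with limma on log2(TPM + 1) and log2(TPM + 0.1) (limma adjusted p = 0.0614 and 0.0700). Arsa and Gal3st1 did not pass (edgeR adjusted p = 0.0683 and 0.0812). Gal3st1 was near the counting floor, with 2 counts in 3-month replicate 4. Arsa passed without 3-month replicate 3 or 21-month replicate 1 (0.0338 and 0.0366), and without the filter on low counts (0.0393). Arsa and Gal3st1 also passed with limma voom with sample weights (limma adjusted p = 0.0195 and 0.0413).

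Of 13 tested genes for FAD and NADPH, the cofactors of the monooxygenases, 1 rose and 0 fell (median log2 fold change 0.15). The NAD kinase gene Nadk, whose product makes NADP, stood at 187, 197 and 198 CPM at 21 months, against 147, 152, 152 and 125 CPM at 3 months (1.34-fold, edgeR adjusted p = 0.0110). Pgd, Rfk and Cyb5 did not pass (edgeR adjusted p = 0.115, 0.128 and 0.157), although Cyb5 did without 21-month replicate 2 (0.0123). Of 27 tested transcription factors and receptors of drug metabolism, 3 rose and 0 fell (median log2 fold change 0.09). Cebpb averaged 58.2 ± 5.79 CPM at 21 months and 35.5 ± 3.51 CPM at 3 months (1.64-fold, edgeR adjusted p = 0.00128). The estrogen receptor gene Esr1 averaged 14.8 ± 1.79 CPM at 21 months and 8.19 ± 1.20 CPM at 3 months (1.79-fold, edgeR adjusted p = 0.00459; SD, n = 3 and n = 4 for each). Stat5a did not pass (edgeR adjusted p = 0.101). With fragment length as a covariate the calls of Slc26a1, Suox, Galns, Ids and Nadk were lost (edgeR adjusted p = 0.0666 to 0.210), and that of Suox was lost without 21-month replicate 3 (0.0502).

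Profiles most like those of the tested genes were sought among genes of at least 5 CPM, by the root mean square difference of log2 CPM over the 7 libraries after centring each gene on its own mean. Nearest to Sult1a1 were Gbp10 (0.13) and Crls1 (0.14), whose log2 fold changes were 0.65 and 0.80. Nearest to Fmo5 were Grpel2 (0.065) and Wwtr1 (0.078), and nearest to Fmo2 were Mrps31 (0.098) and Trmt10c (0.12), with log2 fold changes of -0.68 and -0.67. Fmo1 had 2310035C23Rik (0.043) and Ugt2b36 (0.049), and Fmo4 had Hccs and Sc5d (both 0.17). Sult1b1 had Tmlhe (0.13) and Med21 (0.14), Sult1d1 had Ptp4a1 (0.17) and Akr1d1 (0.18), and Sult5a1 had Lrg1 (0.19) and Cyp2c70 (0.21). Such likeness over few libraries is a description. As the profiles span both ages, a like fold change follows from the choice of these genes.

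Liver identity and other cell types were checked by marker lists, beside the same background of 11.3% of all genes passing (5.47% higher, 5.86% lower). All 8 hepatocyte markers were expressed, with summed levels of 88098 to 99048 TPM at 21 months and 68315 to 91426 TPM at 3 months; Alb rose (1.43-fold) and Apoa1 fell (1.46-fold). Of 8 stellate cell markers, Dcn and Cygb rose (1.63-fold and 2.13-fold), and the list summed to 147 to 196 TPM at 21 months and 88.8 to 127 TPM at 3 months. Of 8 endothelial markers 1 fell, Lyve1 (2.80-fold; 69.3 to 158 TPM at 21 months and 80.9 to 146 TPM at 3 months). Of 5 tested bile duct markers 1 fell, Sox9 (1.67-fold; 44.7 to 48.7 TPM at 21 months and 45.2 to 55.8 TPM at 3 months). Of 2 tested B and plasma cell markers 1 rose, Igj (list sums of 8.96 to 46.6 TPM at 21 months and 3.63 to 5.35 TPM at 3 months). Igj is near the counting floor, with 50, 168 and 32 counts at 21 months, against 3, 3, 0 and 0 counts at 3 months. Its call was also lost with library-size scaling, without the filter on low counts, and with limma voom with or without sample weights. Lyve1 lost its call with library-size scaling, and Lyve1, Sox9 and Apoa1 with limma on log2(TPM + 1) and log2(TPM + 0.1). Alb lost its call without edgeR's robust option. The markers named above as rising or falling had edgeR adjusted p-values of 0.00105 to 0.0426. With 1 library left out, calls were lost for Alb (3-month replicate 1, 3 or 4, or 21-month replicate 3), Apoa1 (3-month replicate 2 or 21-month replicate 3), Lyve1 (3-month replicate 2, or 21-month replicate 1 or 3) and Igj (each 3-month replicate, or 21-month replicate 1), at edgeR adjusted p = 0.0502 to 0.142. With fragment length as a covariate, Dcn alone of the 7 named markers still passed. None of 7 macrophage, 5 red cell and 1 adipocyte markers tested passed; no T and NK cell or neutrophil marker was tested, and Klrd1, a T and NK cell marker, was at 0 in every library. The median shortfall of effective length was 35.4, 30.9 and 21.4 bases in 21-month replicates 1, 2 and 3 and 34.4 to 38.8 bases at 3 months. It served as the fragment length covariate. Whether it reflects the fragment or the read was not tested. As 21-month replicates 2 and 3 lay below every 3-month library, it partly follows age. A call lost with this covariate therefore does not show that the ages are alike. The part of these markers in the age differences of the 9 genes was not tested.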

How the data were processed

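RNA was profiled in 7 liver libraries; per the labels' protocols, poly(A)-selected RNA was fragmented, ligated to adapters and amplified by PCR as strand-specific libraries without molecular identifiers. Per the submitters' processing notes, TopHat, RSEM, edgeR and build mm9 were used; which step each served, and its version, is not stated there. The authors deposited expected counts per gene (86.5% whole numbers) and TPM, used here for levels between genes; the deposited FPKM values were not used. Expected counts are split between near-identical genes, and no genome was used.

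Expected counts were rounded, filtered with edgeR's filterByExpr (minimum count 10, minimum total 15), scaled by TMM and tested with the robust quasi-likelihood test (R 4.3.3, edgeR 4.0.16, limma 3.58.1, DESeq2 1.42.0; Python 3.11.15, matplotlib 3.10.9). Log2 fold changes compare 21 months with 3 months as baseline; the SE is the log2 fold change over the root of the F value, and 95% intervals use the fit's degrees of freedom. CPM are scaled counts per 1e+06. A count of 0 allows up to 3 counts, 0.257 to 0.607 CPM by library; floors and counting intervals cover counting error only. No pair of libraries was alike within counting noise, and each was counted as 1 sample. That comparison can find only repeat sequencing of 1 library, so it does not show that the libraries came from separate animals.

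Same-numbered libraries of the 2 ages deviated together from their age means (correlations over genes of 0.110, 0.176 and 0.108 for replicates 1, 2 and 3). Some libraries of unlike number did so too, namely 21-month replicate 1 with 3-month replicate 4 (0.157) and 21-month replicate 3 with 3-month replicate 2 (0.0946). As all 3 same-numbered pairs passed 0.1, the numbers were taken as pairs in an alternative with the replicate block. The labels do not say what a number marks. The unpaired 3-month replicate 4 adds nothing to the age difference there, so that fit both pairs libraries and sets this library aside. Genes named were the 9 members, their listed relatives, up to 4 tested genes of each other list by adjusted p, and the 2 nearest profiles; some genes that this rule names are not reported here. Members and lists were chosen with earlier results of these data known. Promoter windows come from RefSeq. The script was tested on simulated data. The planned comparison of protein sequences was not run.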

Additional observations from a re-analysis of the deposited data

Results flagged for a closer look

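In 2 genes a single 3-month library lay far from the other 3 by Dixon's test, which flags about 1 in 20 groups by chance. For Sult1a1, 3-month replicate 1 was low at 74.1 CPM, a gap of 0.881 of the group's range; the highest was 98.7 CPM. For Sult1d1, 3-month replicate 4 was high at 63.8 CPM, a gap of 0.859 of the range; the lowest was 34.0 CPM. For Sult1e1, 3-month replicate 4 held the only counts of its age, 4 counts or 0.649 CPM; with the other 3 libraries at 0 the gap is 1 times the range by construction, and the test says nothing at this depth.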

How the results depend on the processing

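Of the 8 genes tested, 1 passed, against 1274 of all genes. Sult1a1 stayed positive in the 20 alternatives run, yet its call ended without the filter on low counts (log2 fold change 0.74), with fragment length as a covariate (0.94; 0 of the 8 passed, and 332 genes in all) and with the replicate block (0.74, where Fmo5 passed at 0.39 and 1075 genes passed in all). Of the 8 genes, the Sult1c2 relative and the named list genes and markers, the block changed the calls of Sult1a1, Fmo5 and Ids only; the genes of like profile and Sult2a7 were not compared under it. Fmo5 also passed with library-size scaling (0.39; 2 of the 8 passed), without the filter (0.36; 2 passed), with DESeq2 (0.37; 2 passed), with limma on log2(TPM + 1) and log2(TPM + 0.1) (0.49 and 0.50; 2 passed each) and with limma voom with sample weights (0.39; 3 passed, and 2101 genes in all). Fmo2 passed without the filter (-0.81), with limma voom (-0.85; 2 passed) and with sample weights (-0.92), where Sult5a1 turned to -0.033. With 1 library left out, 0 to 2 of the 8 and 580 to 1642 of all genes passed (580 without 21-month replicate 3, and 773, 834 and 745 without 3-month replicates 2, 3 and 4), and the log2 fold change was 0.46 to 0.93 for Sult1a1, 0.38 to 0.94 for Sult1b1, 0.025 to 0.32 for Fmo1, 0.27 to 0.81 for Fmo4, -1.11 to -0.59 for Fmo2, -0.15 to 0.56 for Sult1d1 and -0.17 to 0.29 for Sult5a1. For Fmo5 the log2 fold change was 0.26 to 0.42, and the gene passed in none of these fits. The sign turned for Sult1d1 without 21-month replicate 1 (-0.15), and for Sult5a1 without 21-month replicate 1 (-0.080) or 3-month replicate 2 (-0.17). For these changes the cause was not tested. On the log2(TPM + 1) scale 837 genes passed higher and 281 lower, against 615 and 659. Depth limited Sult1e1 most, then Fmo4 and Fmo2.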
